A study of Mus musculus with 4 samples.

Results

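The monocyte-attracting CC chemokine genes Ccl2, Ccl3, Ccl4, Ccl5, Ccl6, Ccl7, Ccl8, Ccl9 and Ccl12 were followed across 4 populations of mouse dendritic cells (DCs), with every probe that carries one of these symbols. They are 9 of the 19822 genes that could be named on the array. They have 11 probes between them: 7 genes have a single probe, and 2 genes, Ccl5 and Ccl7, have 2. All 11 probes were well above background on all 4 arrays, so every one of the genes has a measured level in every population and none is given as a bound.

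CC chemokines are small secreted proteins that bind receptors on leukocytes and draw them along a gradient. The monocyte chemoattractant proteins act largely through the receptor Ccr2, which brings monocytes out of the marrow and into inflamed tissue, while the macrophage inflammatory proteins and Ccl5 act through Ccr1 and other receptors. In DCs and macrophages, lipopolysaccharide (LPS), a bacterial product sensed by the receptor Tlr4 with its partners Cd14 and Ly96, induces many of these genes through NF-kB and interferon regulatory factors, and IL-10 is known to restrain them.

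All 4 populations came from BALB/c mice and were measured on 1 one-colour Agilent array each. Anti-IL-10 sDCs were cells formed on stroma as described next, with 10 µg/mL of a neutralizing antibody to IL-10 given again every 2 days. The sDCs grew from haematopoietic progenitors depleted of lineage-positive cells on a monolayer of Sca-1+CD117-Lin- mesenchymal stem cells, received LPS, at a dose the labels do not state, on day 4 and were collected on day 9. The maDCs, or mature DCs, were immature DCs kept for 4 to 5 more days with LPS at 10 ng/mL. The imDCs, or immature DCs, were loosely adherent clusters of marrow cells fed with the cytokines IL-4, at 5 ng/mL, and GM-CSF, at 10 ng/mL, taken on day 4 and selected on beads for the integrin CD11c. Thus all but the imDCs had received LPS, and the sDC cultures differed from the other pair in starting cells, stroma and cytokines as well. The labels give GM-CSF at 10 ng/mL and IL-4 at 5 ng/mL for both imDCs and maDCs, and neither cytokine for either sDC culture. No array held stroma alone, or cells kept for the same time without LPS. The labels do not state how the sDCs were parted from the stroma.

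With 1 array per population there is no spread between cultures, and no test or p-value is given. Levels are log2 of the processed signal minus the 75th percentile of the array, so 0 is that percentile. Differences are in log2 units, and a difference of at least 1, which is 2-fold, is counted as higher or lower. The scanner software's own error model gave 0.14 log2 units for a member probe on 1 array and 0.20 for a difference, which covers the measurement of a spot only, as do the repeat spots given further on. Since each level is an average over a population, fewer cells of a type and less RNA per cell cannot be told apart in any value that follows.

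The arrays held 43379 usable spots each, of which 61.2% to 69.7% were well above background. The imDC array lay on a different slide and scan from the other 3, so wherever imDCs are compared, slide and population cannot be told apart. The sDC label and the DC markers went apart: 10 of 11 DC markers were lower by at least 2-fold in sDCs than in maDCs, among them the MHC class II gene H2-Aa at -6.80 and its invariant chain Cd74 at -6.28. Macrophage markers summed to 743 on the anti-IL-10 sDC array, 788 in sDCs, 471 in maDCs and 254 in imDCs (linear units, where 1 is the array's 75th percentile). On every array that sum lay mostly in Lyz2, with log2 levels of 8.86 in anti-IL-10 sDCs, 8.89 in sDCs, 8.31 in maDCs and 7.57 in imDCs. Stromal markers summed to 127 in anti-IL-10 sDCs, 212 in sDCs, 143 in maDCs and 153 in imDCs, but on the maDC and imDC arrays that sum lay mostly in Thy1 and Acta2. By contrast, the collagen gene Col1a1 had a level of 4.77 in anti-IL-10 sDCs and 5.57 in sDCs, against -2.69 in maDCs and -2.59 in imDCs. All 14 macrophage and all 14 stromal markers were well above background on both sDC arrays; 13 macrophage and 11 stromal markers were on the maDC and imDC arrays, where the macrophage receptor Cd163 was not. Neutrophil markers summed to 237 in anti-IL-10 sDCs, 129 in sDCs, 84 in maDCs and 1145 in imDCs. On both sDC arrays that sum lay mostly in S100a8 (6.42 in anti-IL-10 sDCs, 6.14 in sDCs) and S100a9 (7.17 and 5.82). Of the 8 neutrophil markers with a probe, 5 were at least 2-fold lower in sDCs than in maDCs and 2 higher (median -1.45). Mast cell and basophil markers summed to 0.598 in anti-IL-10 sDCs, 0.364 in sDCs, 131 in maDCs and 25.5 in imDCs, and eosinophil markers to 0.141 in anti-IL-10 sDCs, 0.0994 in sDCs, 3.84 in maDCs and 31.6 in imDCs. The part of such cells in the chemokine signal was not tested.

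The probes of the 9 genes all lie on chromosome 11, in 2 clusters (mouse build mm9). The first holds the monocyte chemoattractant genes, with probes at chr11:81850650-81850709 for Ccl2, chr11:81860656-81860715 for Ccl7, chr11:81916710-81916769 for Ccl12 and chr11:81930108-81930167 for Ccl8, all on the plus strand. The second holds the others, with probes at chr11:83339296-83339355 for Ccl5, chr11:83388223-83388282 for Ccl9, chr11:83401997-83402056 for Ccl6 and chr11:83461358-83461417 for Ccl3 on the minus strand, and at chr11:83478052-83478111 for Ccl4 on the plus strand. The other Ccl7 probe lies at chr11:81860504-81860563, and the other Ccl5 probe matches chr11:83339447-83339502. Because these genes are close relatives, the probes were compared with each other: over 53 pairs of probes of different members, the longest shared run was 13 bases, between Ccl8 and Ccl12, the pair with the largest differences between sDCs and imDCs. Windows of 30 bases of these 60-base probes are shown with the shared run in capitals, to show where it lies in each probe.
Ccl8: ttctgcagCCTTGAACCTTCAcacctgagt
Ccl12: tCCTTGAACCTTCAtgtctaggctgagagt
Against all other probes of the array, 1 member probe shared a run of 15 bases or more, that of Ccl9 with a probe for Rhou.

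Of the 9 genes, 5 have an upstream sequence in the RefSeq promoter table of build GRCm38.p6 (Ccl3, Ccl6, Ccl8, Ccl9 and Ccl12). Of these, 3 are printed, since Ccl12 and Ccl8 differed most from imDCs in the first cluster and Ccl9 most in the second among members with an entry. Each is the 250 bases before the annotated start, 5′ to 3′ on the strand of the gene. Capitals mark matches, on either strand, to the TATA box (TATAAA), the PU.1 core (AGGAAGT), AP-1 (TGANTCA), the ISRE core (GAAA, 2 bases of any kind, GAAA) or the NF-kB consensus. PU.1 is a factor of the myeloid lineage, and the ISRE binds interferon regulatory factors.
Ccl12, chr11:82101595-82101844, plus strand: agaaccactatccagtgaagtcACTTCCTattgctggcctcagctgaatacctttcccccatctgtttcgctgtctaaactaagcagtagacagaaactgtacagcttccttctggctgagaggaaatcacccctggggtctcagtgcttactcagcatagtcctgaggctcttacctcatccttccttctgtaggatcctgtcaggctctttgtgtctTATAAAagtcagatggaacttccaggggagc
Ccl8, chr11:82114935-82115184, plus strand: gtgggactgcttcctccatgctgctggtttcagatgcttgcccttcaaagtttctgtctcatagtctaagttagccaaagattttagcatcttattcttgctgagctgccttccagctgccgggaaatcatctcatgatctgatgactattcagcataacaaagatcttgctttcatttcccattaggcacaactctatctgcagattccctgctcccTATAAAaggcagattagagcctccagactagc
Ccl9, chr11:83578637-83578886, minus strand: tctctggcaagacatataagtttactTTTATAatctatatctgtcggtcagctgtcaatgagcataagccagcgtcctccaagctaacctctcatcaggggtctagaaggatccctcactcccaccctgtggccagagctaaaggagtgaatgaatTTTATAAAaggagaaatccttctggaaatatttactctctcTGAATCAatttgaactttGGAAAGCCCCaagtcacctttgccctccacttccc
Ccl12 and Ccl8 both have a TATA box close to the start, at -31 to -26 and at -32 to -27. Ccl12 has a PU.1 core on the reverse strand at -228 to -222. Ccl9 has an NF-kB match on the reverse strand at -35 to -26, an AP-1 match at -53 to -47, which fits the symmetric pattern on both strands, and 3 TATA matches, of which those at -94 to -89 and -92 to -87 overlap. Ccl6 has a PU.1 core at -48 to -42, and Ccl3 has none of these letters in its window. Among 32851 promoters of the same length, 12.4% hold the TATA box, 7.69% the PU.1 core, 7.25% the NF-kB consensus, 6.75% AP-1 and 2.98% the ISRE core. In a pairwise alignment, the Ccl12 and Ccl8 windows were identical in 150 of 270 columns (55.6%), the highest identity among 10 pairs. Ccl6 and Ccl9 were identical in 47.2% of columns and shared the longest exact run, 13 bases. These matches describe letters and say nothing of binding.

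Each of the 9 genes had its lowest scaled level in imDCs, though Ccl3 intensities before scaling were 77313 in anti-IL-10 sDCs and 80629 in imDCs. The imDC array had the highest 75th percentile, 10.96 against 10.35 to 10.54 on the others, so scaling lowered its levels the most. Of the 9 genes, 6 (Ccl2, Ccl7, Ccl3, Ccl4, Ccl5 and Ccl9) were highest in maDCs, then sDCs, then anti-IL-10 sDCs. The exceptions were Ccl12 and Ccl8, which were highest in sDCs, and Ccl6, which was highest in anti-IL-10 sDCs, though its lead over sDCs was 0.06 and within the error model. The share of all genes that were lowest in imDCs, or that had the same order, was not counted.

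**Figure D1:**
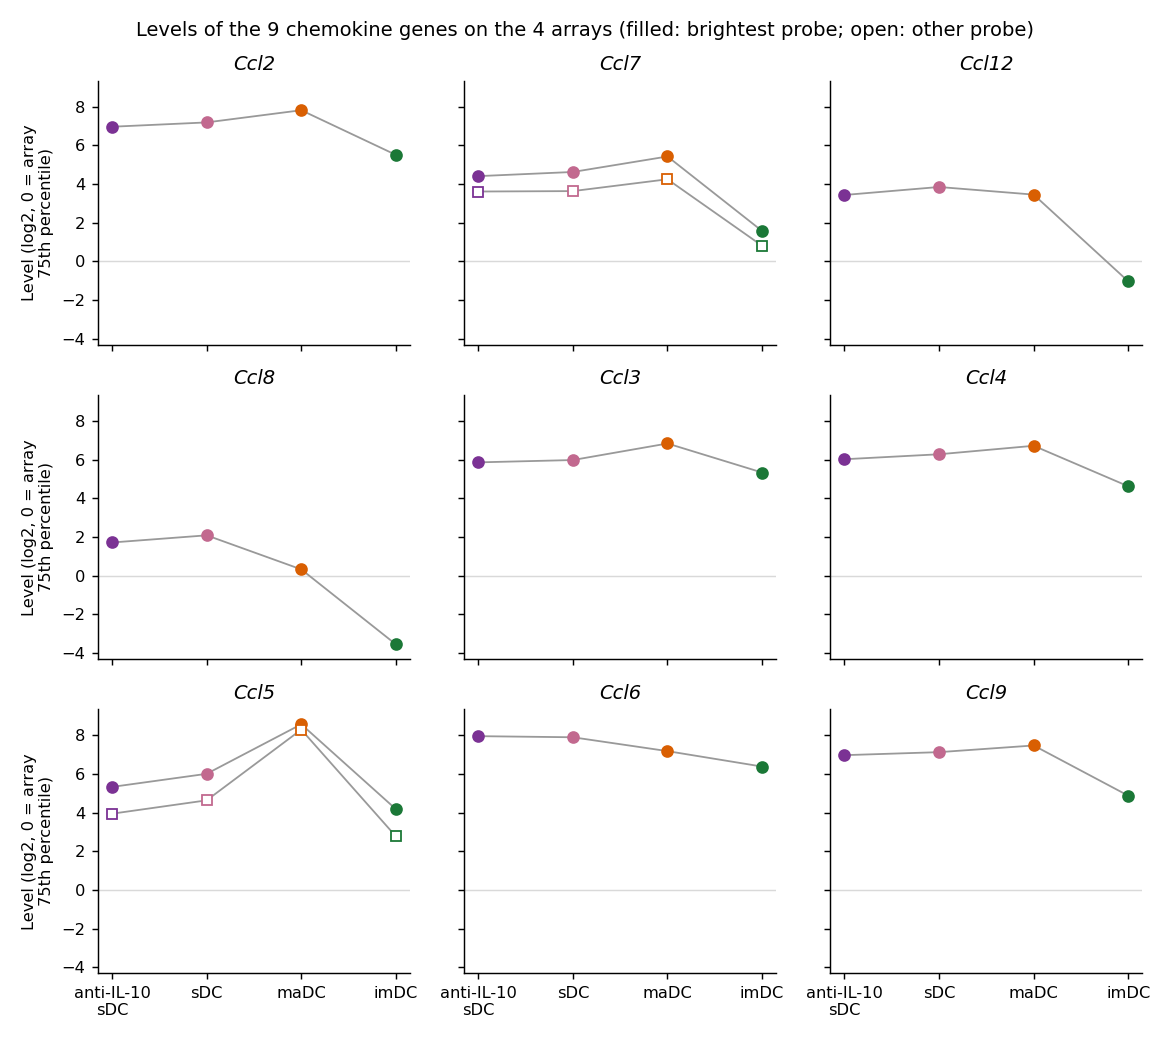
Levels of the 9 chemokine genes, 1 panel each, on the 4 arrays, in log2 units where 0 is the array's 75th percentile; filled circles are the brightest probe, open squares the other probe of Ccl7 and Ccl5, and error bars, hidden by most symbols, are the scanner software's error model. The imDC point is the lowest in every panel, and the maDC point of Ccl5 stands at 8.57 against 6.01 in sDCs.

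Ccl2, or MCP-1, the main ligand that draws Ccr2-bearing monocytes, was read from a single probe. That probe is printed 10 times on each array, which gives the level a spotting error of its own: 6.97 ± 0.052 in anti-IL-10 sDCs, 7.19 ± 0.064 in sDCs, 7.82 ± 0.060 in maDCs and 5.51 ± 0.076 in imDCs (SD between spots, n = 10 each). On these scaled levels the spots of no array overlapped those of another. They ran between 6.92 and 7.04 in anti-IL-10 sDCs, 7.05 and 7.26 in sDCs, 7.68 and 7.88 in maDCs, and 5.36 and 5.60 in imDCs. The gap between the highest anti-IL-10 sDC spot and the lowest sDC spot was smaller than that between the 75th percentiles, 10.38 and 10.35. That gap between spots therefore rests on the scaling, while the difference between the 2 means was -0.20 without scaling. The transcript was thus 4.96-fold higher in maDCs and 3.2-fold higher in sDCs than in imDCs, lower by a log2 difference of -0.63 in sDCs than in maDCs, and lower by -0.22 in anti-IL-10 sDCs than in sDCs.

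**Figure D2:**
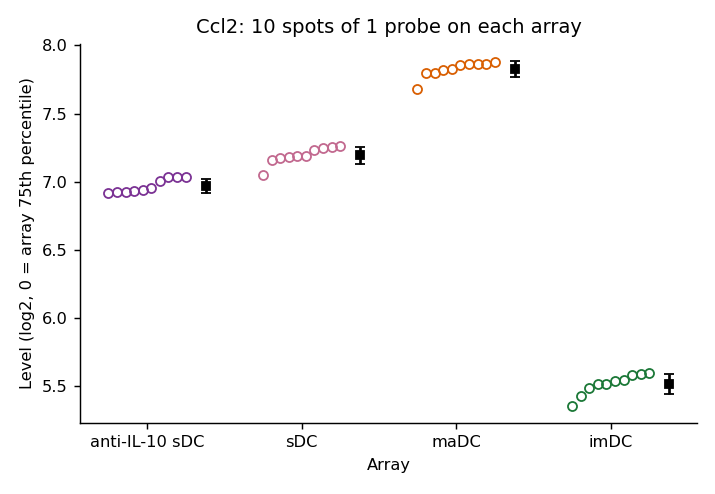
The 10 repeat spots of the Ccl2 probe on each array (open circles, sorted by level) with their mean and SD (black), in log2 units where 0 is the array's 75th percentile; the axis does not start at 0. On these scaled levels the 4 arrays form separate bands, with anti-IL-10 sDCs up to 7.04 and sDCs starting at 7.05, a gap that rests on the scaling.

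Ccl7, or MCP-3, which binds Ccr2 and further CC receptors, had a level of 4.41 in anti-IL-10 sDCs, 4.63 in sDCs, 5.43 in maDCs and 1.58 in imDCs. Its other probe read 3.62 in anti-IL-10 sDCs, 3.64 in sDCs, 4.25 in maDCs and 0.81 in imDCs. Both probes placed the arrays in the same order, with imDCs far below the rest: 3.85 (other probe 3.44) for maDC minus imDC and 3.05 (2.83) for sDC minus imDC. The sDC level lay below that of maDCs by -0.80 (-0.61). Antibody treatment went with -0.22 on the brighter probe and -0.02, within the error model, on the other.

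Ccl12, or MCP-5, a mouse Ccr2 ligand, had a level of 3.44 in anti-IL-10 sDCs, 3.85 in sDCs, 3.46 in maDCs and -1.03 in imDCs. It was 22.5-fold higher in maDCs and 29.5-fold higher in sDCs than in imDCs, and 0.716% of all genes with a value differed upwards by as much or more in maDC minus imDC. The sDC and maDC levels differed by 0.39, and the antibody difference was -0.41.

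Ccl8, or MCP-2, which in the mouse acts through Ccr8, had a level of 1.72 in anti-IL-10 sDCs, 2.09 in sDCs, 0.33 in maDCs and -3.55 in imDCs. Processed intensities were 4370 units in anti-IL-10 sDCs, 5568 in sDCs, 1869 in maDCs and 170 in imDCs. Both sDC arrays therefore stood above maDCs, and all 3 stood far above imDCs. Ccl8 had the widest range of the 9 genes: 14.7-fold higher in maDCs and 49.9-fold higher in sDCs than in imDCs, with 0.924% of genes as high in the second comparison. It was also 3.39-fold higher in sDCs than in maDCs, and lower by -0.37 in anti-IL-10 sDCs than in sDCs. On the imDC array the spot finder did not locate the Ccl8 and Ccl12 spots, though both were well above background there.

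Ccl3, or MIP-1 alpha, a ligand of Ccr1, had a level of 5.86 in anti-IL-10 sDCs, 5.98 in sDCs, 6.84 in maDCs and 5.34 in imDCs. It was 2.83-fold higher in maDCs than in imDCs. In sDCs it was above imDCs by 0.65 on the scaled levels, while the unscaled intensities were 82839 in sDCs and 80629 in imDCs, a difference of 0.04. The sDC level was below that of maDCs by -0.86, and the antibody difference of -0.12 was within the error model.

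Ccl4, or MIP-1 beta, a chemoattractant of monocytes and T cells and the neighbour of Ccl3, had a level of 6.02 in anti-IL-10 sDCs, 6.28 in sDCs, 6.72 in maDCs and 4.62 in imDCs. It was 4.28-fold higher in maDCs and 3.15-fold higher in sDCs than in imDCs. The other differences were small, -0.44 for sDC minus maDC and -0.26 for anti-IL-10 sDC minus sDC.

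Ccl5, or RANTES, which binds Ccr1 and Ccr3 and attracts T cells and eosinophils as well as monocytes, had a level of 5.33 in anti-IL-10 sDCs, 6.01 in sDCs, 8.57 in maDCs and 4.18 in imDCs. Its other probe read 3.94 in anti-IL-10 sDCs, 4.63 in sDCs, 8.29 in maDCs and 2.77 in imDCs. The maDC array stands alone on both probes: Ccl5 was 21-fold (other probe 46-fold) higher in maDCs than in imDCs, and 5.91-fold (12.6-fold) lower in sDCs than in maDCs. In sDCs it was 3.55-fold (3.64-fold) higher than in imDCs. The probes gave different folds, and their maDC levels lay closer together than their levels elsewhere. The mean raw signal of the brighter probe was 92.1% of the scanner's saturation value in maDCs and that of the other 75%, against 5.91% and 2.21% in imDCs. No spot carried a saturation mark, and whether the brighter probe was compressed near that ceiling was not tested. Ccl5 also had the lowest antibody difference of the 9 genes, -0.68 (-0.69), and 4.36% of all genes were as low or lower there.

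Ccl6, or C10, and Ccl9, or MIP-1 gamma, are myeloid chemokines of rodents that act through Ccr1. Ccl6 had a level of 7.95 in anti-IL-10 sDCs, 7.90 in sDCs, 7.18 in maDCs and 6.38 in imDCs. It was the 1 gene that stayed under 2-fold between maDCs and imDCs (0.80), while in sDCs it was 2.86-fold higher than in imDCs and above maDCs by 0.72. Ccl9 had a level of 6.97 in anti-IL-10 sDCs, 7.13 in sDCs, 7.47 in maDCs and 4.88 in imDCs, and so followed the order of most other members. It was 6.05-fold higher in maDCs and 4.76-fold higher in sDCs than in imDCs, with -0.35 between sDCs and maDCs and -0.16 between the antibody-treated and untreated sDCs.

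The comparison of maDCs with imDCs asks how chemokine transcripts differ after LPS, although the maDCs had also spent more days in culture. In maDCs, 8 of the 9 chemokine genes were higher by at least 2-fold and 0 were lower, against 21.6% higher and 10.8% lower over 14108 genes with a value. The median difference was 2.60, beside 0.18 over all genes. By branch, the medians were 3.87 for the monocyte chemoattractants (Ccl2, Ccl7, Ccl12 and Ccl8), 2.10 for Ccl3, Ccl4 and Ccl5, and 1.70 for Ccl6 and Ccl9. Among all genes past 2-fold, 66.7% were higher in maDCs, a share that was 55.3% with quantile scaling 56.4% in the authors' value table and 41.5% with no scaling, while the 9 genes kept their side of 2-fold under all 3.

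Against imDCs, sDCs likewise had 8 of the 9 past 2-fold upwards and 0 downwards, with Ccl3 in place of Ccl6 as the gene under 2-fold. Over 15037 genes, 25.4% were higher and 16.1% lower. The median was 1.83 for the 9 genes and 0.21 for all genes. By branch, the medians were 3.97 for the monocyte chemoattractants, 1.66 for Ccl3, Ccl4 and Ccl5, and 1.88 for Ccl6 and Ccl9. Both comparisons rest on the same imDC array. Without any scaling between arrays, a setting added after the data were seen, Ccl6 fell short of 2-fold in sDC minus imDC (0.91), which left 7 of 9 higher, while 33.6% of the genes past 2-fold were higher in sDCs, beside 61.2% with scaling.

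Between sDCs and maDCs the counts of these genes were near those of all genes. Ccl8 was the 1 gene at least 2-fold higher in sDCs and Ccl5 the 1 gene at least 2-fold lower, and the other 7 were within 2-fold; over 14601 genes, 14.2% were higher and 16.8% lower. The median was -0.44, beside 0.03 over all genes. Without scaling Ccl3, at -1.04, also passed 2-fold, which made 2 lower. All 3 of Ccl3, Ccl4 and Ccl5 were below 0 (median -0.86), whereas the monocyte chemoattractants lay on both sides (median -0.12), with Ccl2 and Ccl7 below and Ccl12 and Ccl8 above.

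**Figure D3:**
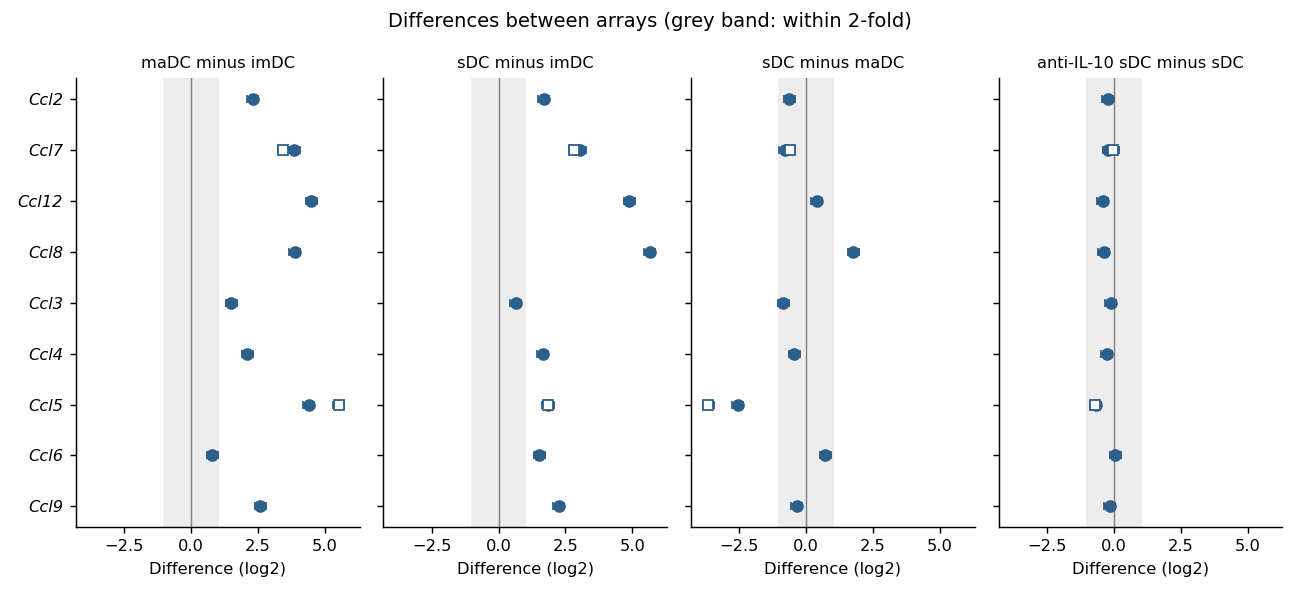
Differences of the 9 chemokine genes in 4 comparisons, in log2 units, with the grey band within 2-fold; filled circles are the brightest probe, open squares the other probe of Ccl7 and Ccl5, and bars the error model of a difference, 0.20. In both comparisons with imDCs 8 genes lie right of the band, Ccl8 and Ccl5 lie on opposite sides of it between sDCs and maDCs, and none leaves it in the antibody comparison.

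The antibody comparison asks what neutralizing IL-10 during sDC formation does to these transcripts. In anti-IL-10 sDCs 0 of the 9 genes were 2-fold higher and 0 were 2-fold lower than in sDCs, where 0.862% of 14393 genes were higher and 1.26% lower. The differences ran between -0.68 (Ccl5) and 0.06 (Ccl6), with a median of -0.22 beside -0.03 over all genes. Of the 9, 8 were below 0, as were 57.6% of all genes. The error model was passed by 6 of the 9, and not by Ccl3, Ccl6 and Ccl9. How many of all genes passed it was not counted, so the 6 cannot be set against a background. The SD over all genes was 0.345. Ccl2 and Ccl7 lay only just beyond the error model's 0.204. They fell within that limit with quantile scaling (-0.17 for each) and with no scaling (-0.203 and -0.195). For Ccl2 the limit is that of a single spot, while its level is a mean of 10 spots. Over all genes the 5th and 95th percentiles were -0.62 and 0.34, so only Ccl5 was outside that range. On the same array pair all 14 stromal markers were lower with the antibody (median -0.88), 0 of 14 macrophage markers passed 2-fold (median -0.15, between -0.94 for C1qc and 0.26 for Cx3cr1), and all 8 neutrophil markers with a probe were higher (median 1.29), among them Ltf at 1.81. Their part in the chemokine differences was not tested.

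The other CC chemokines on the array, most of them ligands for T cells, eosinophils or DCs, were not uniform with these 9. Of 12 listed, 11 had a probe. In maDC minus imDC, 5 of 7 with a value were at least 2-fold higher and 0 lower (median 1.77), led by Ccl1 (3.47), a ligand of Ccr8, Ccl22 (3.18), a ligand of Ccr4 made by mature DCs, Ccl20 (2.65), the ligand of Ccr6, and Ccl19 (1.77), a ligand of Ccr7. The other measured Ccl19 probe gave 3.17. In sDC minus imDC, 2 of 9 were higher and 4 lower (median -0.80). Ccl17, the other ligand of Ccr4, had a level of -4.05 in sDCs against 6.45 in imDCs, a difference of -10.51. Ccl24, or eotaxin-2, differed by -4.83. Ccl22, not well above background in sDCs, was at least 63.8-fold lower there. Ccl11, or eotaxin, was at least 15.3-fold higher in sDCs.

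Between sDCs and maDCs, 1 of 9 other CC chemokines was higher and 5 were lower, with a median of -3.45 beside the -0.44 of the 9 genes. Ccl17 differed by -12.20 and Ccl24 by -5.66, while Ccl22 was at least 579-fold and Ccl1 at least 52-fold lower in sDCs. On this array pair 3 of 9 of them were counted within 2-fold, of which Ccl27a was a bound, at least 1.09-fold higher in sDCs. The same count held 7 of the 9 monocyte-attracting genes, all measured, and 69% of all genes, bounds included. The difference between the sets was not tested. In the antibody comparison 0 of 7 others passed 2-fold in either direction (median -0.13), the lowest measured being Ccl11 at -0.98. Ccl20 entered there as a bound, at least 1.09-fold lower.

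**Figure D4:**
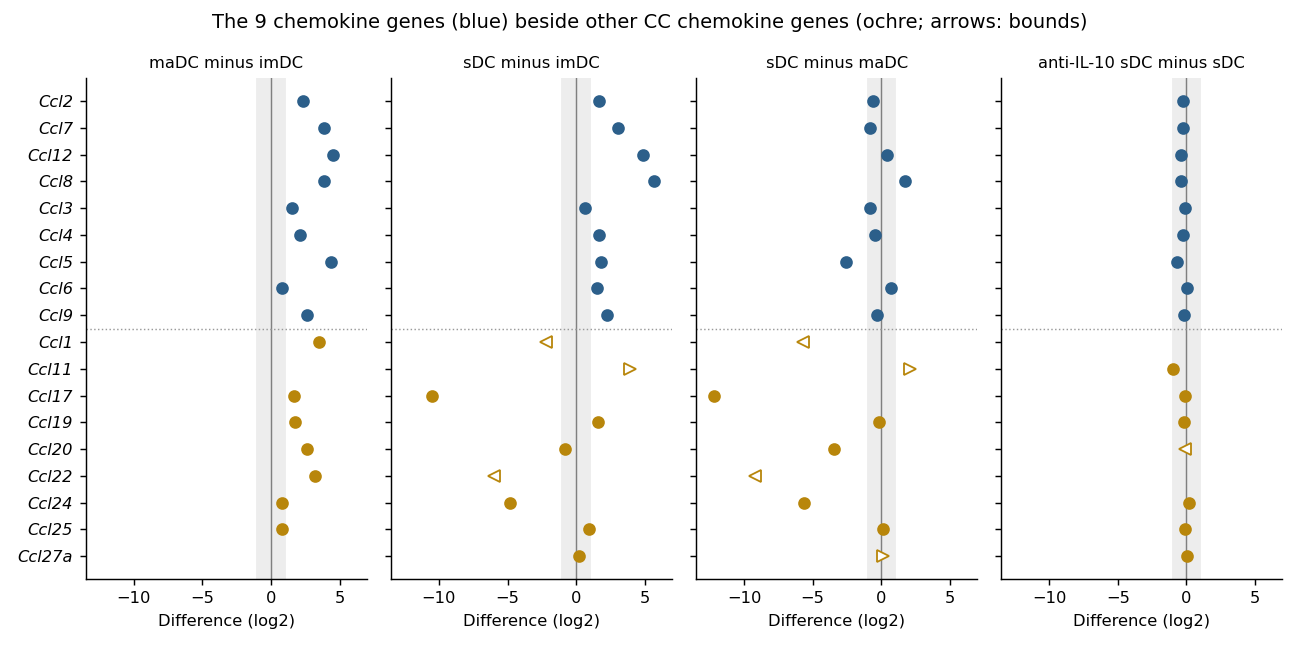
Differences of the 9 chemokine genes (blue) and of the other CC chemokine genes with a value (ochre) in 4 comparisons, in log2 units; arrows are bounds, where 1 array was not well above background, and the grey band is within 2-fold. Ccl17 lies at -12.20 between sDCs and maDCs, while the 9 genes lie between -2.56 and 1.76.

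Of 9 receptors for these ligands, decoy receptors included, Ccr8 and Ackr4 had no value in any comparison. In maDC minus imDC, 2 of 6 with a value were higher and 1 lower. Ccrl2, an atypical receptor that presents ligand without signalling, at 3.23, and Ccr1 at 1.53 were the higher pair, and Ccr2 stood at -0.73. In sDC minus imDC, 5 of 7 were higher and 1 lower, with the scavenging receptor Ackr2 at 2.86, Ccrl2 at 2.19 and Ccr1 at 1.83. Ccr2 had a level of 2.50 in sDCs against -0.04 in maDCs, a difference of 2.55. Ackr1, a receptor that binds many chemokines without signalling, differed by -1.51 between sDCs and maDCs, and Ackr2 was at least 2.73-fold higher in sDCs. In all, 3 of 7 were higher and 2 lower there. In anti-IL-10 sDCs against sDCs 0 of 7 passed 2-fold either way, with Ccr2 at 0.64, Ackr1 at least 1.46-fold lower and Ccrl2 at -0.41.

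Of 24 genes of LPS sensing and chemokine induction, 13 were higher and 2 lower past 2-fold in maDCs against imDCs (median 1.19). Cd14 differed by 3.05, the NF-kB subunit Rel by 2.64 and the interferon regulatory factor Irf7 by 2.51, while Lbp, an LPS-binding protein, was at least 18.8-fold lower. In sDCs against imDCs the counts were 2 higher and 5 lower (median 0.17). Cd14 and Ly96 were the higher pair, at 3.88 and 2.56, and Lbp (-2.93) and Rel (-2.01) were among the lower. Between sDCs and maDCs 1 was higher and 11 lower (median -0.58), the lowest being Rel (-4.65), Nfkb1 (-2.42), Nfkb2 (-2.32) and Relb (-1.89), all NF-kB subunits or their precursors. In the antibody comparison 0 of 24 passed 2-fold either way (median -0.03), with Lbp at 0.41, the inhibitor Tnfaip3 at -0.33 and the mRNA decay factor Zfp36 at 0.29.

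The genes between and next to the 9 on chromosome 11 gave a local background, which includes the CC chemokines Ccl1 and Ccl11 already counted above. Of 21 such neighbours that are not members, named through the RefSeq gene order, 13 had a value in maDC minus imDC, with 4 higher, 4 lower and a median of -0.17. In sDC minus imDC, 4 of 14 were higher and 6 lower (median -0.48), and in the antibody comparison 0 of 14 passed 2-fold either way (median -0.05). Past 2-fold upwards in both comparisons were Wfdc17 (4.01 for maDC minus imDC and 4.79 for sDC minus imDC) and Wfdc18 (4.43 and 5.13), genes of the whey acidic protein family beside the second cluster, and Tmem98 (1.07 and 1.94), a membrane protein gene beside the first. These 3 were picked out after their values were seen.

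Across the 4 arrays, each profile was centred and set against the others by the root mean square distance, a measure over 4 points that many genes can meet. Among the 9, Ccl2 and Ccl4 were the most alike (0.084 log2 units), although they lie in different clusters, and Ccl8 and Ccl5 the least (2.12). Among pairs next to each other on the chromosome, Ccl3 and Ccl4 were at 0.39, Ccl12 and Ccl8 at 0.58, Ccl2 and Ccl7 at 0.62, Ccl6 and Ccl9 at 0.65, Ccl6 and Ccl3 at 0.70, and Ccl5 and Ccl9 at 1.03. Over 12942 genes measured on all arrays, the nearest were Gjb2 (0.035) and Lgi4 (0.053) for Ccl2, Ifi27l2a (0.068) and Mcpt4 (0.084) for Ccl7, Htra1 (0.17) and Tm4sf1 (0.21) for Ccl12, and Slc6a8 (0.16) and Ms4a7 (0.21) for Ccl8. For the second cluster they were Cfap43 (0.021) and Hipk2 (0.037) for Ccl3, Phf11d (0.024) and Clcn2 (0.045) for Ccl4, Efnb2 (0.15) and Tnfsf11 (0.19) for Ccl5, Bmp2k (0.029) and Calcoco1 (0.039) for Ccl6, and Pde8b (0.030) and Serf1 (0.058) for Ccl9. The members with the widest ranges had the more distant neighbours.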

How the data were processed

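For each array the authors deposited a scanner table, whose intensity per spot was corrected for background by Agilent Feature Extraction 10.5.1.1 per the file headers (9.1 per the submitters' processing notes), and a value table on a log2 scale. Each column of that log2 table, as deposited, correlated with the scanner values at 0.997 to 1.00 across probes, with column medians of 6.30 to 6.31. It was used as an alternative. From the scanner intensities, log2 was taken and each array's 75th percentile subtracted. Control and outlier spots were left out, repeat spots were averaged, and a probe needed the scanner's well-above-background mark on 50% or more of its spots. No member spot was saturated, but 15 to 18 of the 20 member spots per array came from the low-gain scan, scaled up by the software. A gene was read from its brightest probe. A probe dim on 1 array entered as a bound, written "at least", whose dim side took its own signal or, where that was smaller, the lowest signal that any marked probe had. Bounds were counted by their size, so a gene counted within 2-fold through a bound may differ by more. Genes were named through RefSeq (GRCm38.p6): 25097 probes by accession, 6333 by symbol and 1640 by synonym, with 8104 unnamed. With 1 array per population the number of arrays limits the precision. The members and lists were chosen with earlier results of these data known. Of each list, the counts, the median and up to 4 genes with the largest absolute difference per comparison are named, except that some genes the rule takes are not reported here, and for each member the 2 genes with the nearest profile; a gene named outside this rule was chosen after its values were seen, as were the marker genes named singly and Ccl11. R 4.3.3 with limma 3.58.1 and Python 3.11.15 were used, and the scripts were tested on simulated data. Alternatives were quantile scaling, normexp background correction (offset 50), the value table, the median over probes, outlier spots kept, no filter on dim probes, and bounds left out; no scaling between arrays was added after seeing the data.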

Additional observations from a re-analysis of the deposited data

How the results depend on the processing

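All 36 differences of the 9 genes (4 comparisons each) kept their sign and their side of 2-fold under 7 of the 8 alternatives, those other than no scaling. The largest shifts were 0.57 with the median over probes, 0.51 with quantile scaling, 0.45 with normexp and 0.26 in the authors' value table. The median over probes can move only Ccl5 and Ccl7. The remaining 3 of these 7 could move none: no member spot was left out as an outlier, every member probe was well above background, and no member was a bound. Those 3 therefore say nothing of how stable the members are. Quantile scaling moved the median of the 9 genes to 2.30 for maDC minus imDC and to 1.59 for sDC minus imDC, beside 2.60 and 1.83, and moved the median of all genes there to -0.02 and 0.00, beside 0.18 and 0.21. Without scaling between arrays, added after seeing the data, those medians were 2.18 and 1.22 for the 9 genes and -0.23 and -0.38 for all genes, and 2 of the 36 changed their side of 2-fold: Ccl6 in sDC minus imDC (0.91) and Ccl3 in sDC minus maDC (-1.04), which made 2 genes lower there, beside 1. Over all genes, without the filter on dim probes 6219 genes were higher in maDCs than in imDCs, beside 3045, and 6165 in sDCs than in imDCs, beside 3816. Without scaling, 2015 genes were higher and 2838 lower (beside 3045 and 1517) in maDCs against imDCs, and 2261 and 4465 (beside 3816 and 2421) in sDCs against imDCs. In the antibody comparison 124 genes were higher and 181 lower, against 45 and 48 with normexp, 309 and 584 without the filter, and 60 and 110 with bounds left out. No paired analysis was possible because each population has 1 array, and slide could not be fitted as a block. The cause of these shifts was not tested. Levels near the scanner's ceiling (Ccl5 in maDCs) and spots the software did not locate (Ccl8 and Ccl12 in imDCs) limit those values.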
